A study of Mus musculus with 16 samples.

Results

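The 10 genes described here encode the ligands of the transforming growth factor-beta (TGF-beta) system, their receptors, 2 proteins that hold the ligands latent, a decoy receptor and a signal transducer. They were taken by gene symbol, out of 47729 gene rows, from the counts of 16 RNA-seq libraries of mouse liver cells. They are the ligands Tgfb1, Tgfb2 and Tgfb3, the receptors Tgfbr1, Tgfbr2 and Tgfbr3, the latent TGF-beta binding proteins Ltbp1 and Ltbp4, the decoy receptor Bambi and the transducer Smad3. The study asked how loss of the transcription factor Zeb2 from endothelium changes liver cells, and the values below answer which cell type held each part of this system and whether it differed between genotypes.

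Endothelial cells (ECs), hepatic stellate cells (HSCs), Kupffer cells (KCs, the resident liver macrophages) and hepatocytes (HEPs) were isolated from unchallenged livers by density centrifugation and flow sorting, with 2 libraries per cell type and genotype. The libraries labelled KO came from mice with floxed Zeb2 alleles (loxP sites around exon 7), and a tamoxifen-inducible Cre driven by the endothelial Cdh5 promoter (Cdh5-CreERT2) on an R26R eGFP reporter background, and those labelled WT from Cre-negative littermates. All mice, the controls included, received 2 mg tamoxifen daily for 5 days, and the study's methods give males of 8 weeks and RNA profiles at 2 weeks after the last injection as the standard. By the study's methods, Cre acted in the endothelium of other organs as well. As the 4 cell types were isolated together, 1 mouse may have given RNA to several cell types.

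TGF-beta is secreted as a latent complex, in which the ligand's own propeptide holds it inactive and a binding protein tethers it to extracellular matrix. Integrins and proteases release the ligand, which binds the type II receptor Tgfbr2. Tgfbr2 then recruits and phosphorylates the type I receptor Tgfbr1, which in turn phosphorylates Smad2 and Smad3. In liver the pathway is best known as a driver of HSC activation and collagen deposition, and HSCs, macrophages and ECs are known sources of ligand.

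Library totals over gene rows ranged from 12872706 to 15690506 reads, so that 3 counts, taken as the lowest level that can be told from absence, corresponded to between 0.191 and 0.233 CPM (the count divided by the library total, on the usual scale). The sums of 10 EC, 10 HSC, 10 KC and 10 HEP marker genes were each highest in the cell type they mark in all 16 libraries. RNA of other cell types was present and moved with the label. Over 857 genes enriched in hepatocytes, none of them among the 10 genes, the median level in ECs was 11.1% and 22.9% of that in WT HEPs in the 2 WT libraries, against 3.34% and 2.28% in the KO libraries. In HSCs it was 3.91% and 7.94% against 0.915% and 1.39%, and in KCs 4.73% and 8.57% against 9.72% and 11.4%. The Zeb2 count was not lower in ECs labelled KO. It was 106.5 and 105.7 CPM in the WT and 198.9 and 130.1 CPM in the KO libraries (log2 fold change 0.62, SE 0.24, edgeR quasi-likelihood test, adjusted p = 0.303). Adjusted p-values here are Benjamini-Hochberg values over all genes tested, and the threshold was 0.05. The gene count covers all exons and does not measure exon 7 on its own, so the groups are named here by their labels. Directions between labels below hold for the labels as given, and an exchange of labels would turn them. In these bulk libraries, fewer cells of a type and less RNA per cell cannot be told apart.

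The ligands were divided among the cell types, with Tgfb1 mainly in ECs and KCs, Tgfb2 mainly in HSCs and Tgfb3 in KCs and HSCs. HEPs held almost none of the 3. For levels compared between genes, CPM was divided by the length of the gene's merged exons in kb. On this scale Tgfb1 made up 82.1% ± 1.3 of ligand mRNA in ECs (SD, n = 4), whereas Tgfb3 made up 63.2% ± 2.5 in KCs and 62.7% ± 6.6 in HSCs. Tgfb2 contributed 26.9% ± 3.3 in HSCs, against 7.24% ± 1.5 in ECs and 6.95% ± 4.5 in KCs. Total ligand mRNA was 5.31 ± 1.4 CPM per kb in ECs, 10.3 ± 2.0 in HSCs, 11.4 ± 1.5 in KCs and 0.223 ± 0.14 in HEPs.

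**Figure D1:**
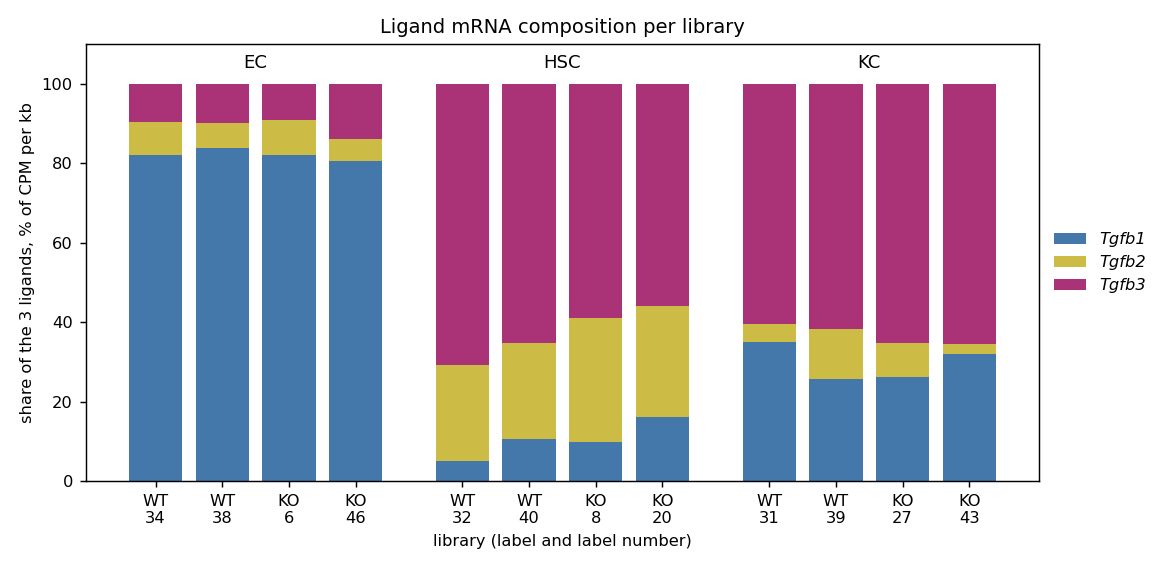
Share of Tgfb1, Tgfb2 and Tgfb3 in the ligand mRNA of each EC, HSC and KC library, as a percent of the summed CPM per kb of exon; each bar is 1 library, named by label and label number. Tgfb1 takes between 80.6% and 83.7% in the 4 EC libraries, and Tgfb3 takes between 55.8% and 70.7% in the HSC and between 60.4% and 65.5% in the KC libraries.

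Tgfb1 (ENSMUSG00000002603, GRCm38 chr7:25687002-25705077, plus strand) encodes the best-studied ligand. In ECs its level was 24.7 and 28.7 CPM in WT and 20.5 and 14.3 CPM in KO libraries. In KCs it was 20.1 and 13.0 CPM in WT and 18 and 17.5 CPM in KO libraries. EC and KC values overlapped, and the fitted difference was -0.01 on the log2 scale (SE 0.38, adjusted p = 0.9999), which turned to 0.33 when scaled by library totals alone. HSCs were lower, with 3.33 and 4.41 CPM in WT and 4.77 and 8.30 CPM in KO libraries, and the difference of ECs from HSCs was 1.84 on the log2 scale (SE 0.40, adjusted p = 0.00575). HEPs had 2 Tgfb1 counts in 4 libraries, both in 1 KO library. The CPM ratio of ECs to HEPs was 664 (95% interval 183 to 5489 for counting error only).

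Tgfb2 (ENSMUSG00000039239, chr1:186622792-186705989, minus strand) is the ligand that depends most on the coreceptor Tgfbr3 for binding. It reached 18.4 and 11.6 CPM in WT and 17.4 and 16.5 CPM in KO HSC libraries. KCs had 2.95 and 7.24 CPM in WT and 6.66 and 1.49 CPM in KO libraries, and ECs 2.86 and 2.56 against 2.51 and 1.11 CPM. Every HSC library lay above every other library, and the EC level was lower than that of HSCs by a log2 difference of -3.10 (SE 0.72, adjusted p = 0.00767). HSCs against KCs gave 1.76 (SE 0.68, adjusted p = 0.0549), which missed the threshold and passed in 7 of 26 alternative fits, DESeq2 (adjusted p = 0.0183) and the one without KC library 27 (2.47, adjusted p = 0.0242) among them. HEPs ranged from 0 to 0.765 CPM.

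Tgfb3 (ENSMUSG00000021253, chr12:86056745-86079041, minus strand) signals through the same receptors. It was at 23.2 and 20.9 CPM in WT and 30.004 and 23.9 CPM in KO KC libraries. In HSCs it was at 31.3 and 18.3 CPM in WT and at 19.2 CPM in each KO library. KCs and HSCs overlapped and their fitted difference was small against its error (log2 difference of HSCs from KCs -0.24, SE 0.26, adjusted p = 0.493). ECs held 1.53 to 2.25 CPM, lower than KCs by a log2 difference of -4.05 (SE 0.30, adjusted p = 1.90e-06) and lower than HSCs by -3.81 (SE 0.30, adjusted p = 2.40e-06). HEPs were at 3 counts in each WT library and at 16 and 10 counts in the KO libraries, a CPM ratio of KO to WT of 4.33 (95% interval 1.75 to 12.9 for counting error only). The fitted label difference, which takes in the spread between libraries, was 2.12 on the log2 scale and missed the threshold (SE 0.94, edgeR quasi-likelihood test, adjusted p = 0.708).

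Promoter windows from 250 bases before to 50 bases after an annotated start in RefSeq (GRCm38.p6) were searched. They covered 7 of the 10 genes, with 11 windows in all. No window of Tgfb3, Tgfbr3 or Bambi was searched. The windows of Tgfb1 and Tgfb2 are shown because these ligands had opposite distributions between ECs and HSCs. That of Ltbp4 is shown because, among the windows searched, the only ones with a match to the E2-box were of this gene (CACCTG, or CAGGTG on the other strand). This box is the sequence that Zeb2 is known to bind. Capitals mark GC boxes (GGGCGG or CCGCCC) in Tgfb1, the TATA box (TATAAA, with TTTATA on the other strand) in Tgfb2 and the E2-box in Ltbp4. The windows are chr7:25686752-25687051 on the plus strand, chr1:186705940-186706239 on the minus strand and chr7:27337563-27337862 on the minus strand, each written 5′ to 3′ along the gene.
Tgfb1: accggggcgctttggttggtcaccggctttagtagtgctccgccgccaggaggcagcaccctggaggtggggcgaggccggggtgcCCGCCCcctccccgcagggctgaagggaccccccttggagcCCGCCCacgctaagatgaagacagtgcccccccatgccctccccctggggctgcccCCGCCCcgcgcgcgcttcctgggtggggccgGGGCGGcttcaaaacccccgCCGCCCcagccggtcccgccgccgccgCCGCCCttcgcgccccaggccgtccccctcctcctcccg
Tgfb2: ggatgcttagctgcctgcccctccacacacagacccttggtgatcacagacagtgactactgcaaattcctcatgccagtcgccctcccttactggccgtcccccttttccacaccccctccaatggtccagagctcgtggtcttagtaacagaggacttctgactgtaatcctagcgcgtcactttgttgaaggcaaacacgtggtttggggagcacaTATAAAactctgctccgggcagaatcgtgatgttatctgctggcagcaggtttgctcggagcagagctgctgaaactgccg
Ltbp4: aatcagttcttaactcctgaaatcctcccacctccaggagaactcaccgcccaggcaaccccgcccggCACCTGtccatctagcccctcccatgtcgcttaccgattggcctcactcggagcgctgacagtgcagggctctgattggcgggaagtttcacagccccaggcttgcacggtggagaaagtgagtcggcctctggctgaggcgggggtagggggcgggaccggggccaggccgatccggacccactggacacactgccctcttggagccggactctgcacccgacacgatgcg
The Tgfb1 window held 6 GC boxes and no TATA box, and the Tgfb2 window held 1 TATA box and no GC box. GC boxes were present in 6 of the 11 windows, against 35.7% of 32851 windows of this length in the genome, and a TATA box in 1 of the 11, against 13.6%. The E2-box was present in 2 of the 11 windows, both of Ltbp4, against 20.2% of all windows, and the AP-1 motif (TGACTCA or TGAGTCA) in none, against 5.2%. These are matches of letters and not measured binding.

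Of the receptors, Tgfbr2 was present at overlapping levels in all 3 non-parenchymal cell types, Tgfbr1 was highest in KCs, and Tgfbr3 was high in HSCs and ECs and low in KCs. Tgfbr2 (ENSMUSG00000032440, chr9:116084293-116175360, minus strand) is the receptor that binds ligand first. Its level was 279.9 and 175 CPM in WT and 222 and 229 CPM in KO ECs. KCs had 92.3 and 253 CPM in WT and 225 and 219.8 CPM in KO libraries, and HSCs 179 and 192 against 169.6 and 131 CPM. The 3 cell types overlapped, and none of their 3 pairwise differences passed the threshold (log2 differences 0.20 for ECs from HSCs, SE 0.33, -0.07 for ECs from KCs, SE 0.33, and -0.28 for HSCs from KCs, SE 0.33). The sign of ECs from KCs turned to 0.21 when scaled by library totals alone. HEPs were at 5.46 to 17.1 CPM. ECs, HSCs and KCs exceeded them by log2 differences of 2.88, 2.68 and 2.95, each past the threshold (the highest adjusted p was 3.89e-05), and by 3.56, 3.40 and 3.68 without HEP library 25.

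Tgfbr1 (ENSMUSG00000007613, chr4:47353222-47414931, plus strand) is the signalling kinase of the pair. It was at 17.9 and 38.1 CPM in WT and 25.9 and 36.1 CPM in KO KCs. Each KC library exceeded all EC libraries (9.49 to 12.2 CPM) and all HSC libraries (6.50 to 16.3 CPM). The log2 difference of ECs from KCs was -1.79 (SE 0.31, adjusted p = 0.000974) and that of HSCs from KCs -1.51 (SE 0.31, adjusted p = 0.00220), while ECs and HSCs overlapped (-0.28, SE 0.31, adjusted p = 0.561). HEPs had 1.16 to 1.78 CPM. Per kb of exon, Tgfbr2 mRNA exceeded Tgfbr1 mRNA by a ratio of 17.5 ± 4.4 in ECs, 13.2 ± 3.6 in HSCs, 6.42 ± 2.1 in HEPs and 5.30 ± 1.2 in KCs (SD, n = 4), and every EC and HSC library (8.75 or more) lay above every KC library (6.93 or less).

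Tgfbr3 (ENSMUSG00000029287, chr5:107106570-107289629, minus strand) encodes betaglycan, the coreceptor that presents ligand to Tgfbr2. HSCs had 120.3 and 114 CPM in WT and 162 and 99.9 CPM in KO libraries. ECs had 84.8 and 98.8 CPM in WT and 95.4 and 65.4 CPM in KO libraries. HSC values lay above EC values, by a narrow gap, and the fitted difference missed the threshold (log2 difference of ECs from HSCs -0.77, SE 0.43, adjusted p = 0.213). It passed in 3 of 26 alternative fits, without a filter on low counts (-0.81, adjusted p = 0.0219) and in both limma-voom fits (-0.77 and adjusted p = 0.0107 in the one without a block). KCs were at 1.41 and 3.13 CPM in WT and 5.61 and 0.745 CPM in KO libraries, below ECs by a log2 difference of 4.69 (SE 0.51, adjusted p = 2.69e-05) and below HSCs by 5.46 (SE 0.53, adjusted p = 9.11e-06). Without KC library 27 these differences were 5.67 and 6.48. As a percent of the mean EC level these KC values were 1.64% and 3.64%, and 6.51% and 0.865%, while the summed EC markers in the same libraries were at 3.64%, 4.96%, 6.42% and 5.34% of theirs. A gene of the same strand, Gm43422, overlaps Tgfbr3 exons and had 242 counts over all libraries, against 12434 for Tgfbr3.

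The 2 latency proteins differed sharply in where they were found. Ltbp4 (ENSMUSG00000040488, chr7:27305136-27337692, minus strand), which is best known for binding the Tgfb1 complex, reached 464 and 345 CPM in WT and 262 and 304 CPM in KO ECs. HSCs were at 405 and 294 CPM in WT and 278 and 156 CPM in KO libraries, overlapping with ECs (log2 difference of ECs from HSCs 0.06, SE 0.28, adjusted p = 0.914). Ltbp4 mRNA was the most abundant of the 10 per kb of exon in ECs, at 53.2 CPM per kb. KCs were at 7.85 and 11.8 CPM in WT and at 36.7 and 18.3 CPM in KO libraries, a log2 difference of ECs from KCs of 4.06 (SE 0.32, adjusted p = 2.62e-06). HEPs were at 0.674 to 3.06 CPM. A further identifier with the symbol Ltbp4, ENSMUSG00000108715, had 0 counts in all 16 libraries.

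Ltbp1 (ENSMUSG00000001870, chr17:75005568-75392512, plus strand), the family's founding member, was found mainly in HSCs. There it was at 80.2 and 67.2 CPM in WT and 45.4 and 33.3 CPM in KO libraries. ECs had 1.40 to 2.65 CPM and KCs 0 to 5.02 CPM, overlapping with each other (log2 difference of ECs from KCs -0.29, SE 0.80, adjusted p = 0.840). The log2 difference of ECs from HSCs was -4.96 (SE 0.88, adjusted p = 0.00135) and that of HSCs from KCs 4.68 (SE 0.87, adjusted p = 0.00108). The latter was 5.48 without KC library 39, the highest of the KC libraries, and 8.33 without KC library 27, which leaves KC library 43, with no Ltbp1 counts, as the only KO library. Of the Ltbp1 and Ltbp4 mRNA per kb of exon, Ltbp4 made up 99.6% ± 0.10 in ECs and 89.2% ± 1.3 in HSCs (SD, n = 4), and each EC library (99.5% or more) lay above each HSC library (91.0% or less).

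Bambi (ENSMUSG00000024232, chr18:3507923-3516404, plus strand) encodes a receptor-like membrane protein without a kinase domain that dampens TGF-beta signals, and is known as a gene of quiescent HSCs. HSCs had 338 and 465 CPM in WT and 464 and 298 CPM in KO libraries. ECs were at 77.8 and 79.7 CPM in WT and at 102 CPM in each KO library. KCs ranged from 12.9 to 26.6 CPM and HEPs from 4.23 to 8.90 CPM, so that all 4 cell types were apart from each other. The log2 difference of ECs from HSCs was -2.36 (SE 0.32, adjusted p = 0.000170), that of ECs from KCs 1.78 (SE 0.31, adjusted p = 0.000909) and that of KCs from HEPs 0.75 (SE 0.31, adjusted p = 0.0590). The last passed in 18 of 26 alternative fits, among them DESeq2 (0.87, adjusted p = 0.0141), no filter on low counts (0.99, adjusted p = 0.00131) and library totals alone (1.76).

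Smad3 (ENSMUSG00000032402, chr9:63646767-63757994, minus strand) carries the signal from Tgfbr1 to the nucleus. HSCs had 105 and 87.8 CPM in WT and 54.7 and 39.9 CPM in KO libraries, and ECs 41.4 and 61.6 against 27.6 and 25.4 CPM. KCs were at 10.3 and 20.8 CPM in WT and 15.5 and 27.0 CPM in KO libraries, and HEPs at 4.52 to 10.7 CPM. Each cell type overlapped with its neighbour in this order. The log2 difference of ECs from HSCs was -1.11 (SE 0.29, adjusted p = 0.0139) and, with library totals alone, -0.87 (adjusted p = 0.0580), which missed the threshold. That of ECs from HEPs was 0.78 (SE 0.29, adjusted p = 0.0369) and missed it without HEP library 29 (0.86, adjusted p = 0.0538) or 41 (0.77, adjusted p = 0.0540).

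**Figure D2:**
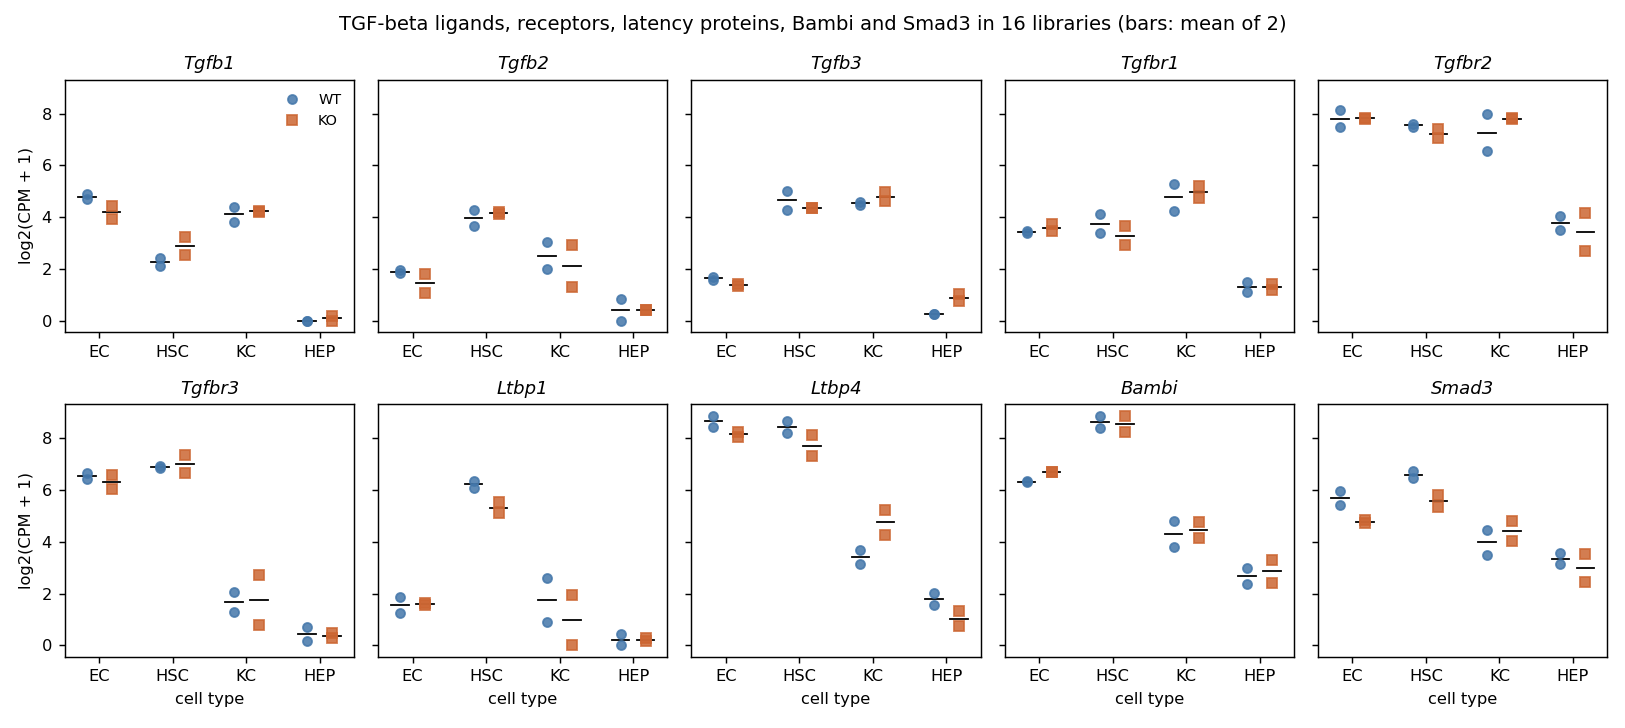
Level of the 10 genes in each library as log2(CPM + 1), by cell type on the horizontal axis; blue circles are libraries labelled WT, orange squares libraries labelled KO, and black bars the mean of 2 libraries. Ltbp1 stands out in HSCs at 33.3 to 80.2 CPM, Tgfbr1 in KCs at 17.9 to 38.1 CPM, and the HEP points lie lowest in each panel or overlap the lowest of the others.

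Counted over the 10 genes, 6 differed between ECs and HSCs (1 higher in ECs, 5 lower), where 26.0% of 17214 genes tested did. Between ECs and KCs 5 differed (3 higher, 2 lower), against 32.0% of all genes, and between HSCs and KCs 7 differed (5 higher, 2 lower), against 42.9%. All 10 were higher in HSCs than in HEPs, where 58.4% of all genes differed. Between ECs and HEPs 7 differed, all higher in ECs, and between KCs and HEPs 7 differed, all higher in KCs. In these comparisons 58.7% and 55.6% of all genes differed. All shares of all genes given here count both directions. The fit scales libraries by the trimmed mean of M-values (TMM). The median log2 difference of all genes was then 0.54, 0.60 and 0.24 for ECs, HSCs and KCs from HEPs and 0.13 for ECs from KCs, where library totals alone gave 1.85, 1.67, 1.24 and 0.45. The medians of the 10 genes were 2.37, 4.74, 2.55 and -0.04 in these comparisons. Differences from HEPs rest on few HEP counts for Tgfb1, Tgfb2, Tgfbr3 and Ltbp1. Without HEP library 25, which held both HEP counts of Tgfb1, this gene moved from 8.88 to 10.9 for ECs, from 7.04 to 9.16 for HSCs and from 8.89 to 11.0 for KCs. Without HEP library 29, Tgfb2 moved from 4.36 to 7.74 for HSCs and from 2.60 to 5.96 for KCs, and its EC value, which had missed the threshold at 1.27 (adjusted p = 0.166), passed at 4.59 (adjusted p = 0.00474). Without the same library Tgfbr3 moved from 6.59 to 7.51 for ECs, from 7.37 to 8.33 for HSCs and from 1.91 to 2.85 for KCs. Without HEP library 33, Ltbp1 moved from 7.17 to 9.98 for HSCs, and without KC library 27 the KC value of Tgfbr3 was 1.13 and missed the threshold (adjusted p = 0.0601), as it did in 5 of 26 alternative fits in all. On CPM without TMM, differences from HEPs were larger, and Tgfb3, at 1.85 CPM in ECs and 0.525 CPM in HEPs, gave a log2 difference of 2.13 in place of 0.78 (SE 0.32, adjusted p = 0.0546). This Tgfb3 difference passed in 16 of 26 alternative fits, among them edgeR with another scaling, RLE (0.80, adjusted p = 0.04675). Leaving out single libraries gave 0.79 to 1.11. Ltbp1 missed the threshold for KCs from HEPs at 2.49 (SE 1.04, adjusted p = 0.0583) and passed in 12 of 26. For ECs from HEPs it missed at 2.20 (SE 1.04, adjusted p = 0.0863) and passed in 6 of 26. The counts of genes differing from HEPs thus depend on the fit.

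The genes whose levels followed each of the 10 most closely were found by Pearson's r of log2(CPM + 1) over the 16 libraries, among 17214 genes. Since the points are 4 libraries in each of 4 cell types, r mainly follows the difference between cell types. Ltbp4 was most like Adamts1 (r = 0.99), Ccnd2 and Timp3, and Tgfbr3 most like Prickle2 (r = 0.99), Pxdn and Cdc42ep3. Tgfb1 was most like Rcc2 (r = 0.99), Fam102b and Jmy, Tgfb2 like Cercam (r = 0.97), Ggt5 and Ptprs, and Tgfb3 like Fblim1 (r = 0.99), Myof and Gpm6b. Tgfbr1 was most like Gng2 (r = 0.98), Abcc1 and Gmip, and Tgfbr2 like Slc44a2 (r = 0.99), Msn and Atxn2l. Ltbp1 was most like Fstl1 (r = 0.98), Susd2 and Klhl23, Bambi like Sept4 (r = 0.99), Slco3a1 and Creb3l1, and Smad3 like Asb1 (r = 0.95), Trib2 and Hp1bp3.

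Between labels, none of the 10 genes passed the threshold in any cell type. In ECs 0 of 10 passed, where 2.08% of 14631 genes tested did, and 1 had an unadjusted p under 0.05, as did 2192 of all genes (983 passed with DESeq2). In HSCs 0 of 10 passed (2 with an unadjusted p under 0.05), in KCs 0 of 10 (1) and in HEPs 0 of the 6 that could be tested (0), and in these 3 cell types 0.0% of all genes passed with edgeR (1259, 706 and 821 genes had an unadjusted p under 0.05, and 406, 72 and 27 passed with DESeq2). With DESeq2 the counts of members were 0, 1, 0 and 0, in the order ECs, HSCs, KCs and HEPs. The 1 gene was Smad3 in HSCs. In HEPs, Tgfb1, Tgfb2, Tgfbr3 and Ltbp1 had too few counts to be tested. The median log2 fold change of the 10 genes was -0.29 in ECs, -0.36 in HSCs and 0.18 in KCs, beside medians of -0.01, 0.02 and -0.02 over all genes, and that of the 6 in HEPs was -0.05 beside -0.02. The libraries of the 2 labels did not overlap in CPM for 6 of 10 genes in ECs (48.2% of all genes), 5 of 10 in HSCs (39.8%), 2 of 10 in KCs (36.6%) and 2 of 6 in HEPs (39.5%).

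**Figure D3:**
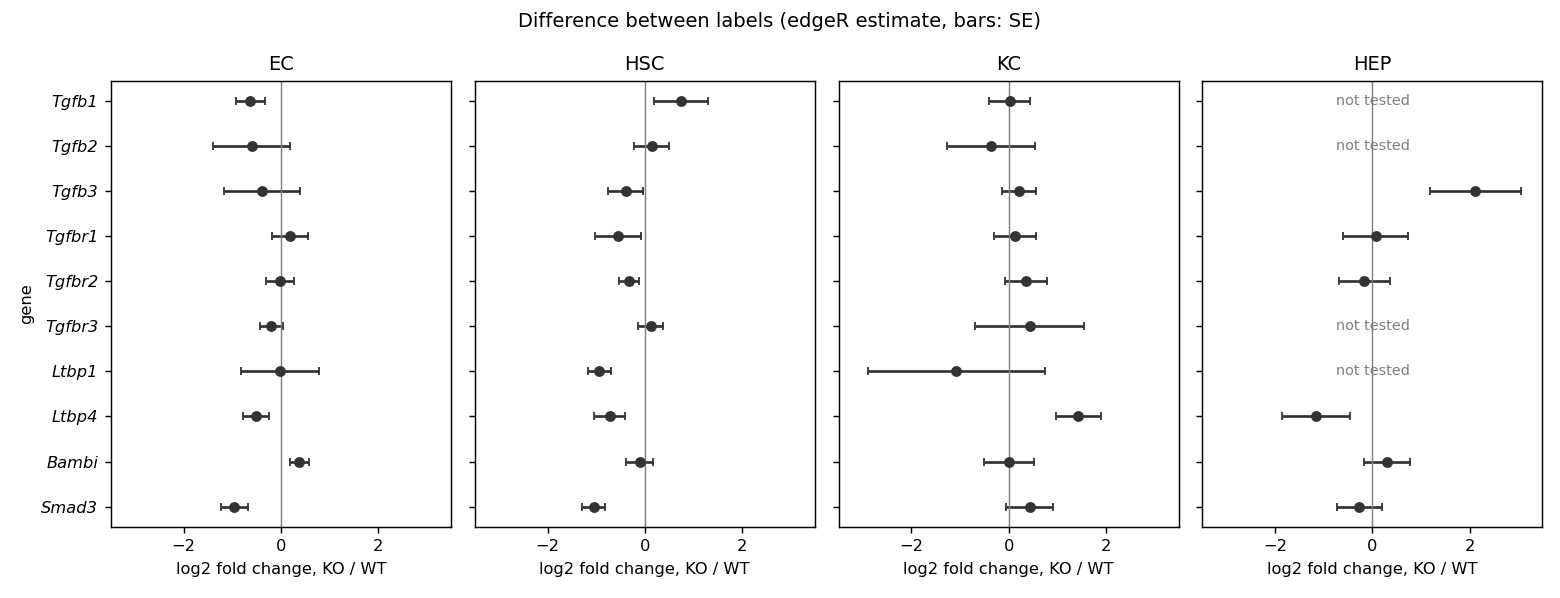
log2 fold change of KO over WT with its SE from edgeR for the 10 genes, 1 panel per cell type; the grey line marks no difference. Smad3 lies at -0.96 in ECs and -1.05 in HSCs and Ltbp4 at 1.43 in KCs, and no point passed the threshold.

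Smad3 was lower in both KO libraries than in both WT libraries in ECs and in HSCs. In ECs the log2 fold change was -0.96 (SE 0.27, adjusted p = 0.175) and in HSCs it was -1.05 (SE 0.23, adjusted p = 0.343). The value in HSCs passed the threshold with DESeq2 (adjusted p = 0.0279) and without a filter on low counts (adjusted p = 0.0148), and over the alternatives without left-out libraries its adjusted p ranged from 0.0148 to 0.702. Leaving out single libraries moved it between -1.23 and -0.91 in HSCs and between -1.18 and -0.67 in ECs. In KCs the libraries overlapped (0.44, SE 0.49, adjusted p = 0.960), as in HEPs (-0.27, SE 0.46, adjusted p = 0.899). Hepatocyte RNA was higher in WT than in KO libraries in both ECs and HSCs, as given above. Smad3 stood at 7.78 and 10.7 CPM in WT HEPs, below its level in every EC and HSC library, and the part of hepatocyte RNA in its label differences was not tested. The summed HSC markers in ECs were at 1.58% and 1.92% of their HSC level in WT and 0.681% and 1% in KO libraries, and their part in Smad3 was not tested.

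The latency proteins had lower values under the KO label in HSCs. Ltbp1 gave -0.94 (SE 0.24, adjusted p = 0.382) and Ltbp4 -0.72 (SE 0.32, adjusted p = 0.619), and for each gene both KO libraries lay below both WT libraries. In ECs Ltbp4 gave -0.51 (SE 0.26, adjusted p = 0.434), again without overlap. The list of portal fibroblast and smooth muscle markers (Thy1, Myh11, Acta2, Cnn1 and Eln, all 5 with counts in every HSC library) summed to 101 to 103 CPM in WT and 203 to 298 CPM in KO HSCs. These sums rested on Myh11, Acta2 and Eln. Thy1 was at 0.192 to 0.32 CPM and Cnn1 at 0.128 to 1.80 CPM in HSCs, near the lowest level that can be told from absence. The part of RNA from such cells in the HSC values was not tested.

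In KCs Ltbp4 had the opposite sign, 1.43 (SE 0.46, adjusted p = 0.933), with 7.85 and 11.8 CPM in WT against 36.7 and 18.3 CPM in KO libraries. Without KC library 27 the value was 0.90. The 10 EC markers, all with counts in every KC library, summed to 768 to 1046 CPM in WT and 1126 to 1352 CPM in KO KCs. Relative to ECs, this was 3.64% and 4.96% in WT and 6.42% and 5.34% in KO libraries, while Ltbp4 stood at 2.28% and 3.44% in WT and 10.7% and 5.33% in KO libraries 27 and 43. Portal fibroblast and smooth muscle markers (4 or 5 of 5 with counts) summed to 10.1 and 6.33 CPM in WT and 53.7 and 17.6 CPM in KO KCs. Of these, Acta2 was at 36.0 CPM in KO library 27, and Thy1 was at 0.457 to 0.88 CPM over the KC libraries. Library 27, with the highest Ltbp4, also stood apart in monocyte markers (71.7 CPM against 8.80 to 12.0 CPM in the other 3), neutrophil markers (169 against 17.4 to 19.2 CPM) and platelet markers (140 against 37.8 to 68.7 CPM). The platelet sum was mainly that of Pf4, which reached 132 CPM in KCs. Of the other listed platelet genes, Itga2b reached 9.81 CPM, and Ppbp, Gp9 and Gp1bb stayed at 1.52 CPM or less in KCs. The part of RNA from any of these cells in the Ltbp4 value was not tested. The test of whether the label difference itself differed between cell types gave -1.98 for ECs from KCs (SE 0.57, adjusted p = 0.117), -2.20 for HSCs from KCs (SE 0.57, adjusted p = 0.112) and 2.59 for KCs from HEPs (SE 0.62, adjusted p = 0.311). These 3 values passed with DESeq2 (adjusted p of 0.0105, 0.00525 and 0.0161) and without a filter on low counts (adjusted p of 0.0137, 0.00223 and 0.00294).

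**Figure D4:**
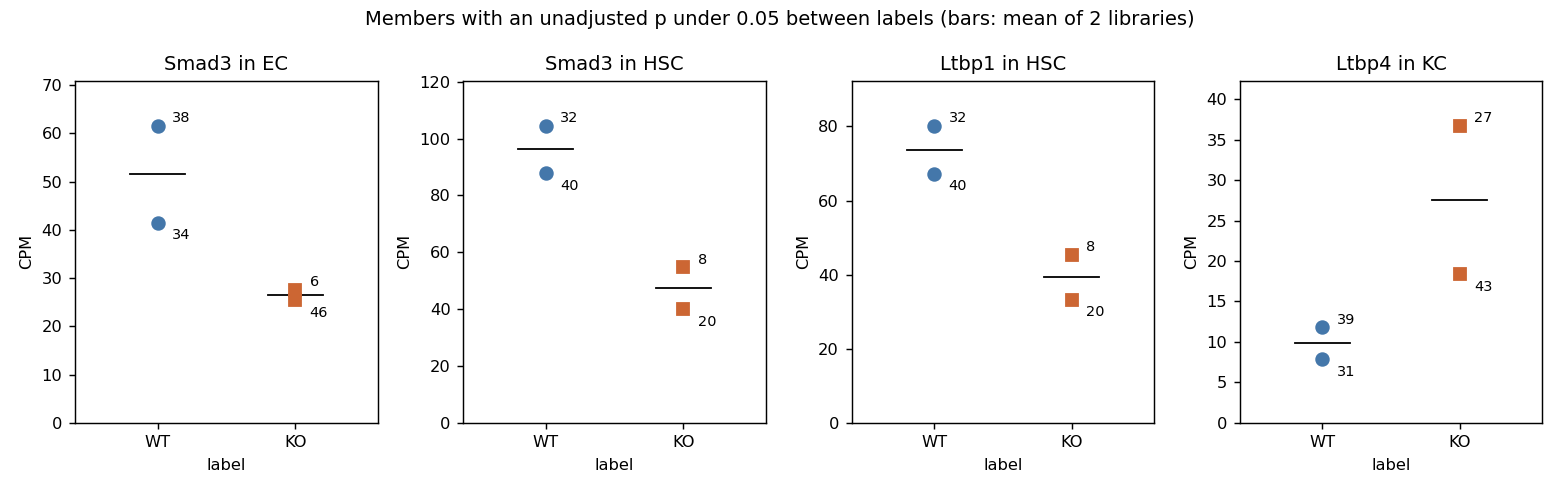
CPM of the 4 gene and cell type combinations with an unadjusted p under 0.05 between labels; points are single libraries with their label numbers, bars the mean of 2. In each panel the labels do not overlap, with Smad3 in HSCs at 87.8 and 105 CPM in WT and 39.9 and 54.7 CPM in KO libraries and Ltbp4 in KCs at 7.85 and 11.8 against 18.3 and 36.7 CPM.

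Over all 6 pairs of cell types, 0 of 60 such differences passed with edgeR, 9 had an unadjusted p under 0.05 and 3, those of Ltbp4, passed with DESeq2. The share of all genes passing with edgeR was 0.0349% for ECs against HSCs, 2.07% for ECs against KCs, 0.0697% for ECs against HEPs, 0.593% for HSCs against KCs, 0.0755% for HSCs against HEPs and 0.0116% for KCs against HEPs. Smad3 gave 0.11 (SE 0.57) for ECs from HSCs, and -1.41 (SE 0.58) and -1.51 (SE 0.58) for ECs and HSCs from KCs. Tgfb3 gave -2.57 (SE 0.65, adjusted p = 0.121) for ECs from HEPs and -2.58 (SE 0.63, adjusted p = 0.173) for HSCs from HEPs. For KCs from HEPs it gave -1.94 (SE 0.63, adjusted p = 0.494), and all of these values rest on few HEP counts.

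Among the ligands, Tgfb1 in ECs gave -0.63 (SE 0.30, adjusted p = 0.396) with both KO libraries below both WT libraries, and in HSCs 0.75 (SE 0.56, adjusted p = 0.801) with both KO libraries above. Lymphocyte markers (6 of 6 with counts) summed to 93.8 to 199.7 CPM in WT and 46.4 to 50.6 CPM in KO ECs, and their part in Tgfb1 was not tested. Tgfb2 and Tgfb3 in ECs were within their errors (-0.60, SE 0.79, and -0.39, SE 0.79). The receptors in ECs were within their errors too, with 0.19 (SE 0.38) for Tgfbr1, -0.02 (SE 0.29) for Tgfbr2 and -0.20 (SE 0.23) for Tgfbr3. Bambi in ECs gave 0.38 (SE 0.20, adjusted p = 0.441), with both KO libraries above both WT libraries, and -0.11 (SE 0.28) in HSCs.

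The list of other pathway genes held 49 symbols, with Ltbp2 in 2 roles, Ctgf also under its other symbol Ccn2, and Dcn and Acta2 shared with the marker lists. Of these symbols 48 were in the files, all but Ccn2. By mean CPM 25 were highest in HSCs, 13 in ECs, 10 in KCs and 0 in HEPs. These ranks use library totals, and TMM factors were 0.50 to 0.59 in HEPs and 1.01 to 1.47 in the other cell types. Ranks such as that of Furin (65.4 CPM in KCs, 36.1 CPM in HEPs) depend on the scaling. Ranks with TMM and the share of all genes highest in each cell type are not given here. Of the 10 latency and matrix genes 8 were highest in HSCs, with Dcn (decorin) at 35548 CPM and Bgn (biglycan) at 6505 CPM in HSCs, both matrix proteoglycans that bind TGF-beta. Of the 12 activators 6 were highest in KCs and 5 in HSCs. Itgb6, counted for KCs, had 0.659 CPM in KC library 27 and no counts in any other library. Itgb8, counted for HSCs, averaged 1.34 CPM there. The integrin gene Itgb1 was highest in HSCs at 727 CPM, as was the protease gene Mmp2 at 447 CPM. Of the 4 other receptor genes, Eng, the endothelial coreceptor endoglin, reached 6792 CPM in ECs and Acvrl1, the type I receptor ALK1, 222 CPM in KCs and 103 CPM in ECs. Of 13 Smads and inhibitors 8 were highest in ECs, among them Fkbp1a, whose product binds the type I receptor and holds it inactive, at 691 CPM. Tgif1, a corepressor of Smads, was highest in KCs at 365 CPM. Of the target genes in the files 9 of 10 were highest in HSCs, with the matrix gene Tgfbi at 5831 CPM and the collagen gene Col3a1 at 1400 CPM.

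Between labels 1 of 44 tested genes of this list passed in ECs, 0 of 47 in HSCs, 0 of 44 in KCs and 0 of 37 in HEPs. The numbers with an unadjusted p under 0.05 were 9, 4, 8 and 3, and the numbers passing with DESeq2 4, 1, 2 and 0. Of all genes tested, 2.08% passed in ECs and 0.0% in HSCs, KCs and HEPs. An unadjusted p under 0.05 was held by 2192 of 14631 genes in ECs, 1259 of 14390 in HSCs, 706 of 13867 in KCs and 821 of 11548 in HEPs. With DESeq2 983, 406, 72 and 27 of these genes passed. The 1 gene of the list that passed in ECs was Col3a1, at 47.9 and 41.6 CPM in WT and 12.6 and 10.6 CPM in KO ECs (log2 fold change -1.95, SE 0.27, adjusted p = 0.0300). It did not pass in the fit of all 16 libraries, without hepatocyte-enriched genes, or without either of the KO EC libraries 6 and 46. In ECs Col1a1 gave -2.31 (SE 0.41, adjusted p = 0.0507) and Acta2, the smooth muscle actin of activated HSCs, -1.999 (SE 0.42, adjusted p = 0.0782). In HSCs Acta2 had the opposite sign, 1.93 (SE 0.55, adjusted p = 0.4265 with edgeR). Its level there was 25.5 and 31.1 CPM in WT and 54.7 and 159.5 CPM in KO libraries. Acta2 was the 1 gene of the list that passed in HSCs with DESeq2 (adjusted p = 0.0150). The 10 HSC markers summed to 1342 to 1622 CPM in WT and 577 to 847 CPM in KO ECs, with 10 of the 10 having counts in WT and all but Hand2 in KO libraries, and HSCs held Col3a1 at 1400 CPM. The part of HSC RNA in the collagen values was not tested. The median log2 fold change of the list was -0.34 in ECs, 0.02 in HSCs, 0.29 in KCs and -0.18 in HEPs.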

How the data were processed

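RNA was sequenced from ECs, HSCs, KCs and HEPs in 16 libraries, with 2 for each label in each cell type. Raw counts of reads were deposited by the authors per Ensembl gene, 1 file per library, without normalization. The submitters' processing notes name Trimmomatic 0.32, HISAT2 2.1.0, HTSeq 0.9.1, edgeR and the build GRCm38. The annotation release and the strand setting are not given in the sources used here, and the labels and the series' design text name different library kits, so reads of overlapping antisense genes may not be separable. The 5 summary lines of each file were left out. Gene positions and exon lengths came from GENCODE M21, which held 98.9% of the identifiers.

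Levels are CPM over gene rows, and levels between genes are CPM per kb of merged exon. This length overstates the transcript used where a gene has many isoforms. Differences were tested on all genes with edgeR 4.0.16 in R 4.3.3 (filterByExpr, TMM, quasi-likelihood test), within 1 cell type for the labels and over 16 libraries for cell types and for differences between them. The threshold was a Benjamini-Hochberg adjusted p under 0.05 over all genes tested. SEs are for log2 values. DESeq2 1.42.0, other scalings, other filters, libraries of 1 label and single libraries left out were tried as alternatives, as was limma-voom (limma 3.58.1), chosen after seeing the data. These tools were tested on simulated data first. Replicates of a group differed beyond counting noise (mean chi-square per gene 29.6 to 109, over genes with at least 10 counts). The labels do not say whether replicates came from separate mice. The study gives n = 2 for the sequencing, beside an extended set of mice for other assays, which implies separate mice without stating it. The p-values measure the spread between libraries. With 2 libraries per group an SD over 4 libraries pools both labels. Libraries were treated as independent, although 1 mouse may have given RNA to several. Intervals cover counting error only.

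The 10 genes, the pathway list and the marker lists were chosen with earlier results of these data known. Named are the 10 genes, Zeb2, the 3 genes most like each, and of the pathway list those past the threshold and the 2 with the highest mean CPM in each role. Col1a1 in ECs, Acta2, Hand2, Itgb6, Itgb8, Furin and the single marker genes given with levels were named after their values were seen.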

Additional observations from a re-analysis of the deposited data

Results flagged for a closer look

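In 2 of 40 sets of 4 libraries (each gene in each cell type), 1 library stood apart from the other 3 by Dixon's criterion at the 95% level, which chance meets in about 1 of 20 sets. Tgfb3 in HSCs was 31.3 CPM in WT library 32 and 18.3 to 19.2 CPM in the other 3 libraries. Without library 32 its label difference went from -0.39 to 0.0615. Tgfb1 in HEPs was 0.129 CPM in KO library 25, from 2 counts, and 0 in the other 3 libraries. With 0 in the other 3, any count in library 25 would have met the criterion, so the rate of 1 in 20 does not hold for this set.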

How the results depend on the processing

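Of the counts recomputed under the alternatives, 247 stayed within 1.5 times and 20 did not. The label differences of the 10 genes kept their direction and side of the threshold in 363 values, reversed in 29 and passed in 2. Cell type differences did so in 1441, reversed in 29, passed newly in 70 and missed newly in 20. Scaling by library totals, limma-voom and, for the other pathway genes, the filters were chosen after seeing the data.

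No label number occurs in more than 1 group. The numbers fall into 8 runs of 4, each run of 1 label with a fixed place for each cell type, and no source says what a run is. Over 10 pairs of libraries of 1 run, some of which mirror each other, the deviations from the group means correlated at -0.01 to 0.14, and 5 of the 10 exceeded 0.1. limma-voom with the run as a replicate block (correlation 0.0359) changed no call of limma-voom without it, and both gave 7, 6, 7, 8, 10 and 6 of the 10 genes for ECs from HSCs, KCs and HEPs, HSCs from KCs and HEPs, and KCs from HEPs, and 0 of the 60 differences. The reversed values were 0.0431 with the block and 0.0378 without it (Tgfb1) and 0.91 and 0.94 (Ltbp1), both ECs from KCs.

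With DESeq2, 1 of the 10 genes passed in HSCs, 4 other pathway genes in ECs, 1 in HSCs and 2 in KCs, and 3 of the 60 differences between cell types. Without a filter 1 of the 10 passed in HSCs, 3 of the 60, and 7, 4, 3 and 2 other pathway genes in ECs, HSCs, KCs and HEPs. The shares of all genes passing without a filter, with limma-voom and, for the 60 differences, with DESeq2 are not given here. These counts therefore cannot be set against the genes as a whole. Of the other pathway genes in ECs, 3 passed with at least 10 counts in every library, 0 passed without hepatocyte-enriched genes, 0 in the fit of all 16 libraries, and 0 to 3 with single libraries left out. With KO libraries only, 3 of the 10 genes differed between ECs and HSCs, and with WT libraries only, 4 between KCs and HEPs. The cause was not tested.

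Cell type differences also reversed in other fits. With WT libraries only they were -0.0633 (Ltbp4, ECs from HSCs), 0.29 (Tgfb1, ECs from KCs), 0.0911 (Tgfbr2, ECs from KCs), 0.0717 (Tgfb3, HSCs from KCs), 0.0641 (Tgfbr2, HSCs from KCs) and -0.27 (Smad3, KCs from HEPs). With KO libraries only they were 0.0905 (Tgfbr1, ECs from HSCs), 0.24 (Ltbp1, ECs from KCs) and -0.27 (Tgfb3, ECs from HEPs). With library totals alone they were 0.33 (Tgfb1) and 0.21 (Tgfbr2), both ECs from KCs.

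With single libraries left out, cell type differences that reversed ranged from -0.077 to 0.35 (Tgfbr2) and -0.14 to 0.21 (Ltbp4) for ECs from HSCs, -0.22 to 0.19 (Tgfb1), -0.36 to 0.26 (Tgfbr2) and -0.78 to 3.33 (Ltbp1) for ECs from KCs, -0.53 to 0.10 (Tgfbr2) for HSCs from KCs, and -0.91 to 5.29 (Ltbp1) and -0.16 to 0.63 (Smad3) for KCs from HEPs. Label differences that reversed ranged in ECs from -0.0171 to 0.39 (Tgfbr1), -0.33 to 0.40 (Tgfbr2), -0.42 to 0.0114 (Tgfbr3) and -0.42 to 0.57 (Ltbp1). In HSCs they ranged from -0.16 to 0.53 (Tgfb2), -0.75 to 0.0615 (Tgfb3), -0.19 to 0.37 (Tgfbr3) and -0.39 to 0.12 (Bambi). In KCs they ranged from -0.34 to 0.51 (Tgfb1), -1.75 to 0.32 (Tgfb2), -0.24 to 0.64 (Tgfbr1), -0.13 to 1.11 (Tgfbr2), -1.58 to 1.23 (Tgfbr3), -8.41 to 0.50 (Ltbp1), -0.48 to 0.78 (Bambi) and -0.0774 to 0.89 (Smad3). In HEPs they ranged from -0.16 to 0.35 (Tgfbr1), -1.11 to 0.41 (Tgfbr2), -0.23 to 0.69 (Bambi) and -0.91 to 0.18 (Smad3). A group left with 1 library is assumed to vary like the others. In HEPs 4 of the 10 genes had too few counts for a test between labels.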
